A study of Mus musculus with 8 samples.

Results

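Meiotic crossovers are made by a small set of proteins that pick some of the DNA double strand breaks of the first meiotic prophase and turn them into exchanges between homologous chromosomes. MSH4 and MSH5 form a clamp that holds the joined DNA molecules, the helicase HFM1 and the TPR-repeat protein TEX11 act with them, the RING proteins RNF212 and CCNB1IP1 (also called HEI10) set how many sites keep the clamp, and the cyclin-like protein CNTD1 and the mismatch repair protein MLH3 act late, at the sites that become crossovers. The 8 genes *Msh4*, *Msh5*, *Mlh3*, *Hfm1*, *Rnf212*, *Ccnb1ip1*, *Cntd1* and *Tex11* were chosen by symbol, with no measured value, and all 8 were found among the 54532 genes of the expression table. Each passed the filter used for testing, FPKM (fragments per kilobase of transcript, scaled between the libraries) above 1 in at least 1 library. Of the 8, 7 exceeded it in every library. *Ccnb1ip1* did so in 7 of 8 libraries.

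RNA had been sequenced from spermatocytes of C57BL/6J mice that were MFN2 WT (labelled Mfn2 loxp/loxp) or MFN2 cKO (labelled Mfn2 loxp/loxp; Stra8-Cre, in which Cre recombinase under the *Stra8* promoter removes exon 6 of *Mfn2* in male germ cells). Cells at pachytene (P) or at leptotene and zygotene (L/Z) were taken at postnatal day (PD) 24 or PD 52, which gives 8 groups with 1 library each. MFN2, mitofusin 2, fuses the outer membranes of mitochondria. Every group, the controls included, carried the floxed allele, although the study's methods also allow controls with a single floxed copy. By those methods controls and knockouts were littermates, but the labels do not say which libraries share a litter. The cells had been separated by sedimentation through albumin and judged by size and shape, and the number of mice behind a library is not given in the sources used here.

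The libraries held between 14340665 and 20379950 reads on genes, of which the 8 genes took between 0.0111% and 0.0362%. *Mfn2*, counted over all exons, stood in MFN2 cKO at 41.8% to 80.5% of its MFN2 WT level and was lower in 4 of 4 pairs. Markers of other cells were present in every library. All 14 markers of round and elongating spermatids exceeded FPKM 1 in all 8 libraries, and their summed level was 159.5 to 5351 FPKM in P and 581 to 21571 FPKM in L/Z, highest in the MFN2 cKO L/Z library at PD 52. The summed level of 10 pachytene genes overlapped between the stages (4137 to 5924 FPKM in P, 3505 to 5882 FPKM in L/Z), as did that of 11 leptotene and zygotene genes (276.7 to 332.9 FPKM in P, 224.7 to 297.5 FPKM in L/Z), so neither stage label was set apart by the summed level of its list. In RNA from many cells, fewer cells of a type and less RNA per cell cannot be told apart.

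**Figure D1:**
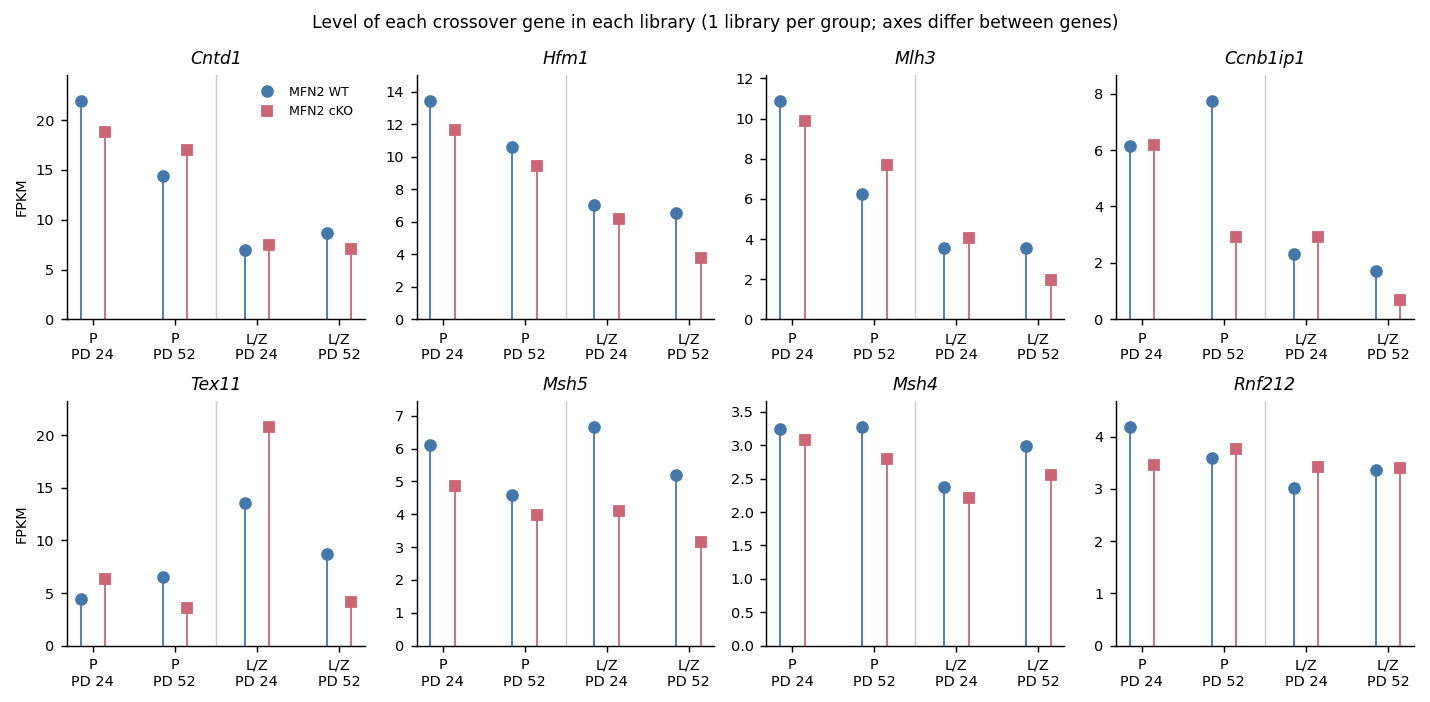
FPKM of each of the 8 genes (vertical axes, from 0, with a scale of their own) in the 8 libraries, ordered by stage and age along the horizontal axis, with MFN2 WT as circles and MFN2 cKO as squares. *Cntd1*, *Hfm1*, *Mlh3* and *Rnf212* are higher in every P library than in any L/Z library, and *Tex11* has its highest values, 13.6 and 20.8 FPKM, in the L/Z libraries at PD 24.

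*Cntd1* had the highest level of the 8 genes in all 4 P libraries and in 1 L/Z library (MFN2 cKO at PD 52), and *Tex11* had it in the other 3 L/Z libraries, by 8.72 against 8.63 FPKM in MFN2 WT at PD 52. FPKM is per length, so these levels can be set side by side, except that the level of *Cntd1*, its place in this order and its share of any sum are uncertain, since 70.2% of its exonic bases are shared with another gene. The medians over the 8 libraries ran from 2.89 FPKM for *Msh4* to 11.5 FPKM for *Cntd1*, which lay between the 72.6th and the 87.7th percentile of all genes detected in any library. The spread over the libraries differed among the genes. The highest level was 11.2 times the lowest for *Ccnb1ip1*, 5.88 times for *Tex11*, 5.62 times for *Mlh3*, 3.58 times for *Hfm1* and 3.15 times for *Cntd1*. It was no more than 2.10 times for *Msh5*, 1.48 times for *Msh4* and 1.38 times for *Rnf212*.

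The summed level of the 8 genes was 51.1 to 70.4 FPKM in P and 26.7 to 51.1 FPKM in L/Z. It was lowest, 26.7 FPKM, in the MFN2 cKO L/Z library at PD 52, which is also the library with the highest summed level of spermatid markers. The part of these cells in this low sum was not tested. The makeup of the sum differed between the stages, as *Cntd1* gave 25.2% to 33.3% of it in P and 14.5% to 26.5% in L/Z, while *Tex11* gave 6.31% to 11.4% in P and 15.4% to 40.7% in L/Z.

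**Figure D2:**
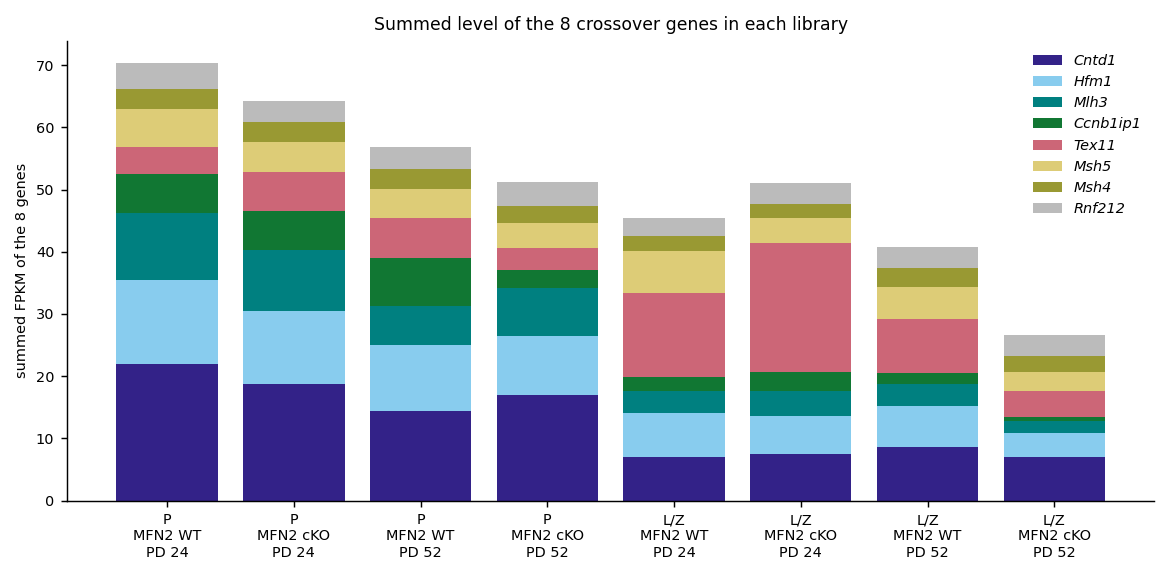
Summed FPKM of the 8 genes (vertical axis) in each library (horizontal axis), with each gene's own FPKM as a coloured segment. The sum runs from 70.4 FPKM in the P MFN2 WT library at PD 24 to 26.7 FPKM in the L/Z MFN2 cKO library at PD 52, and the *Tex11* segment is tallest in the L/Z libraries at PD 24.

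The first comparison asked which crossover genes differed between the stages. *Ccnb1ip1*, *Mlh3*, *Cntd1* and *Hfm1* were higher in P, *Tex11* was lower in P, and *Msh4*, *Msh5* and *Rnf212* did not pass the test. P and L/Z of the same genotype and age formed 4 pairs, and the difference of log2(FPKM + 1) was tested with limma over 21175 genes with the pair as a block. A gene was called at an adjusted p under 0.05 after Benjamini-Hochberg adjustment over all genes. The 4 pairs differ in genotype and age, so the error is the spread of the stage difference over these pairs and not over replicate mice. Of all genes tested, 12.4% were called higher in P and 16.0% lower, against 4 and 1 of the 8 crossover genes. The median difference was 0.54 for the 8 genes and -0.04 for all genes on the log2 scale. With no block for the pair, *Ccnb1ip1* (adjusted p = 0.066), *Hfm1* (0.052) and *Tex11* (0.221) did not pass.

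The promoter windows of the 4 genes called higher in P are shown because these genes passed the same test in the same direction. They were taken from RefSeq (GRCm38.p6) and run from 250 bases before to 50 bases after the start of transcription, read 5′ to 3′ on the strand of the gene. Capitals mark matches to 3 sets of letters that were searched on both strands. These were a MYB core (the letters CAACNG or else TAACNG, with T or G in place of N), the STRA8 motif CNCCTCAG and the cAMP response element TGACGTCA.
Ccnb1ip1, chr14:50795679-50795978, reverse strand: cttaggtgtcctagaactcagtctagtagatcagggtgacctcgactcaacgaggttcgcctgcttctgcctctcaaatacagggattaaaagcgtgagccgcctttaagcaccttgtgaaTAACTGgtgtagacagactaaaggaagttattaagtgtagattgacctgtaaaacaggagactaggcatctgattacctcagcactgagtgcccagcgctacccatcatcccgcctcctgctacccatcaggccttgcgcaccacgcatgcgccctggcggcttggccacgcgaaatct
Mlh3, chr12:85270550-85270849, reverse strand: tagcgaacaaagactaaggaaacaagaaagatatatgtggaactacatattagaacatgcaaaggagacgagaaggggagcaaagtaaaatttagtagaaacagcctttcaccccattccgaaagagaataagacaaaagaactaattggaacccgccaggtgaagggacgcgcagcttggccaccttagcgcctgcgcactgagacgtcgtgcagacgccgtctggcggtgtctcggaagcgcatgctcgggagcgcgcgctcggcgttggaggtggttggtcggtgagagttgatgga
Cntd1, chr11:101278953-101279252, forward strand: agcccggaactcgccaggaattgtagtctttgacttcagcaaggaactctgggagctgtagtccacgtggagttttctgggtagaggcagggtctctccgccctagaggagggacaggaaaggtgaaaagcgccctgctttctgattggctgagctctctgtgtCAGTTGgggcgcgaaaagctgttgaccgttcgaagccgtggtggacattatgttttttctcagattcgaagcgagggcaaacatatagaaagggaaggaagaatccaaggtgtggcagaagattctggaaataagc
Hfm1, chr5:106925841-106926140, reverse strand: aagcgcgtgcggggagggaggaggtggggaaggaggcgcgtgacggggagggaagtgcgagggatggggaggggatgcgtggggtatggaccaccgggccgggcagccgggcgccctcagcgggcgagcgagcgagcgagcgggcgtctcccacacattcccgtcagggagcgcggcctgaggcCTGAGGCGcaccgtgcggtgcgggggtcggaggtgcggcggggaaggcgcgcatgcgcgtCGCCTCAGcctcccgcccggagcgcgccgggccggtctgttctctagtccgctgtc

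The capitals in the *Ccnb1ip1* window (position -129 from the start) and the *Cntd1* window (position -86) are MYB cores, which 28.3% of the 32851 RefSeq promoter windows of this length hold. MYBL1, a transcription factor of pachytene spermatocytes, binds such cores. The *Hfm1* window holds 2 STRA8 motifs, at positions -66 and -6, which do not overlap. A STRA8 motif was present in 7.94% of all windows. The *Mlh3* window has no match. *Msh4*, *Msh5* and *Rnf212*, which did not pass the test for stage, also had windows, and among them *Msh4* held a MYB core, *Msh5* a MYB core and a STRA8 motif, and *Rnf212* no match. In none of the 7 genes with a window was the cAMP response element found, which 1.79% of all windows hold. These matches are letters in a sequence and were not measured as binding. The *Hfm1* window was the richest in G and C, at 75.3%, against a median of 52.7% over all windows.

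*Ccnb1ip1* encodes the E3 ubiquitin ligase that acts against RNF212 and clears the clamp from most sites. It lies on chromosome 14 (50789248 to 50807732, reverse strand). It stood at 6.16 FPKM in MFN2 WT and 6.17 FPKM in MFN2 cKO in P at PD 24, and at 7.75 and 2.93 FPKM in P at PD 52. In L/Z it stood at 2.30 and 2.93 FPKM at PD 24 and at 1.70 and 0.690 FPKM at PD 52. The lowest P library thus met the highest L/Z library, and the stages touched although P was higher in 4 of 4 pairs. The difference was 1.22 on the log2 scale (SE 0.17, limma adjusted p = 0.0042), a 2.33-fold rise of FPKM + 1 in P. The ratios of FPKM itself, P over L/Z, were 2.10 to 4.55 over the 4 pairs.

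*Mlh3* (chromosome 12, 85234520 to 85270599, reverse strand) encodes a subunit of the nuclease that resolves recombination intermediates into crossovers. Its level in P was 10.9 FPKM in MFN2 WT and 9.88 FPKM in MFN2 cKO at PD 24, and 6.26 and 7.69 FPKM at PD 52. In L/Z the values were 3.55 and 4.07 FPKM at PD 24, and 3.55 and 1.94 FPKM at PD 52. Every P library was above every L/Z library. The rise of FPKM + 1 in P was 2.27-fold (1.18 on the log2 scale, SE 0.18, limma adjusted p = 0.0051). Ratios of FPKM itself were 1.77 to 3.97 over the pairs.

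*Cntd1* (chromosome 11, 101279012 to 101296317, forward strand) encodes the cyclin-like protein needed for late crossover sites to mature. In P it stood at 21.9 FPKM in MFN2 WT and 18.8 FPKM in MFN2 cKO at PD 24, and at 14.3 and 17 FPKM at PD 52. In L/Z it stood at 6.97 and 7.42 FPKM at PD 24 and at 8.63 and 7.07 FPKM at PD 52. The stages did not overlap, and the rise of FPKM + 1 in P was 2.22-fold (1.15 on the log2 scale, SE 0.18, limma adjusted p = 0.0051). Ratios of FPKM itself were 1.66 to 3.15 over the pairs. The exons of *Cntd1* share 3104 bases, 70.2% of their length, with *Becn1*, an autophagy gene on the other strand. Whether strand was used in counting is not given in the sources used here, so reads of the shared bases cannot be told apart and the level of *Cntd1* is uncertain. *Becn1* itself ranged from 11.3 to 17 FPKM, with a stage difference of 0.33 on the log2 scale that did not pass the test (adjusted p = 0.125). *Cntd1* also shares 82 exonic bases with *Coa3*, which stood at 21.3 to 39.0 FPKM.

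*Hfm1* (chromosome 5, 106840192 to 106926321, reverse strand) encodes the helicase that unwinds DNA at the early intermediates. Its P values were 13.5 FPKM in MFN2 WT and 11.7 FPKM in MFN2 cKO at PD 24, and 10.6 and 9.45 FPKM at PD 52. Its L/Z values were 7.04 and 6.17 FPKM at PD 24, and 6.56 and 3.75 FPKM at PD 52. Again no L/Z library reached any P library. The rise of FPKM + 1 in P was 1.81-fold (0.85 on the log2 scale, SE 0.15, limma adjusted p = 0.0075). Ratios of FPKM itself were 1.62 to 2.52 over the pairs.

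*Tex11* is the X-linked member (chromosome X, 100838648 to 101059667, reverse strand) and the mammalian counterpart of yeast Zip4. In P it stood at 4.45 FPKM in MFN2 WT and 6.33 FPKM in MFN2 cKO at PD 24, and at 6.48 and 3.54 FPKM at PD 52. In L/Z it stood at 13.6 and 20.8 FPKM at PD 24, and at 8.72 and 4.12 FPKM at PD 52. It was lower in P in 4 of 4 pairs, but the L/Z library at 4.12 FPKM lay within the range of P. The difference was -0.89 on the log2 scale (SE 0.26, adjusted p = 0.043). Without the MFN2 WT pair at PD 24 the adjusted p was 0.174, and without the MFN2 cKO pair at PD 24 it was 0.118, so the call rests on both PD 24 pairs. It was also lost in an additive fit of genotype, stage and age (adjusted p = 0.102) and with no FPKM filter (adjusted p = 0.126). Of 834 genes on chromosome X, 33.5% were called lower in P, against 15.2% of 20155 autosomal genes, and the median difference was -0.45 on the X and -0.02 on the autosomes on the log2 scale. The X chromosome is transcriptionally silenced in pachytene. A stage difference at or below that of *Tex11* was found in 23.3% of X-linked and 8.43% of autosomal genes.

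*Msh4* and *Msh5*, the clamp, and *Rnf212*, the RING protein that stabilises it, had the smallest ranges of the 8 genes. *Msh4* (chromosome 3, 153857149 to 153906138, reverse strand) stood at 2.79 to 3.27 FPKM in P and 2.22 to 2.99 FPKM in L/Z. *Msh5* (chromosome 17, 35028605 to 35046745, reverse strand) stood at 3.96 to 6.10 FPKM in P and 3.17 to 6.66 FPKM in L/Z. *Rnf212* (chromosome 5, 108729290 to 108774982, reverse strand) stood at 3.46 to 4.18 FPKM in P and 3.02 to 3.42 FPKM in L/Z. *Rnf212* did not overlap between the stages even so, and with *Cntd1*, *Hfm1* and *Mlh3* it makes 4 of 8 genes that were higher in every P library, against 10.0% of all genes. The stage differences on the log2 scale were 0.22 for *Msh4* (95% confidence interval -0.11 to 0.54), 0.05 for *Msh5* (-0.29 to 0.39) and 0.14 for *Rnf212* (-0.18 to 0.47). These intervals do not show that the levels were equal. *Rnf212* rested on 82 to 139 reads per library, the fewest after *Ccnb1ip1*, which had 19 to 234.

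**Figure D3:**
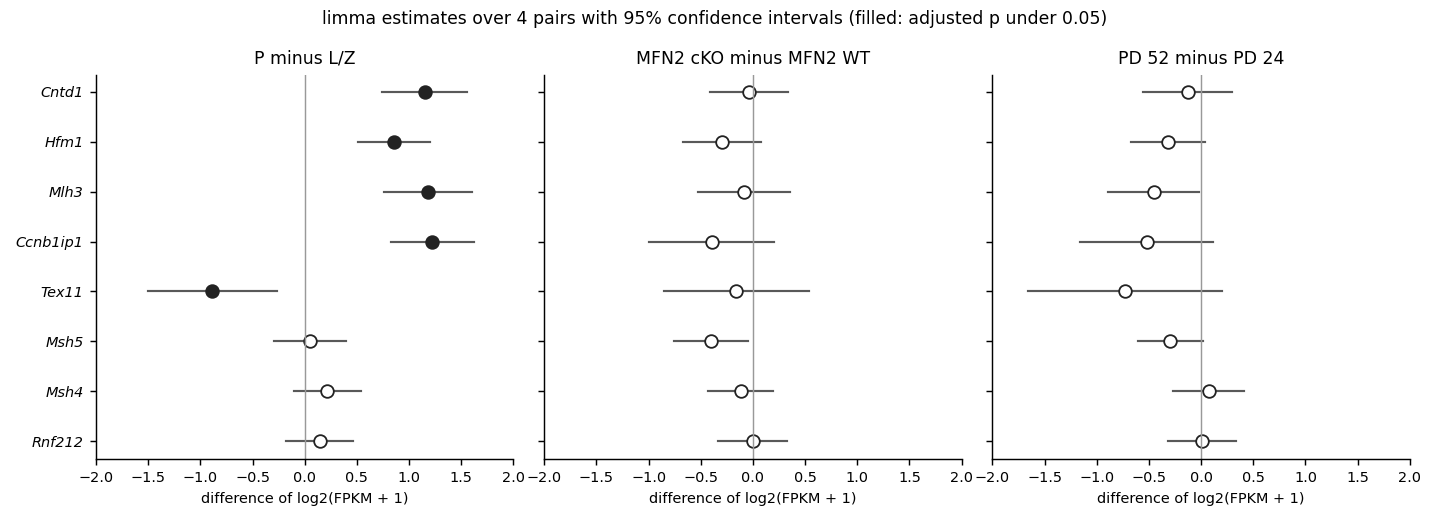
limma estimates for the 8 genes (rows) as differences of log2(FPKM + 1) on the horizontal axis, for P minus L/Z, MFN2 cKO minus MFN2 WT and PD 52 minus PD 24, with lines for the 95% confidence intervals. Filled circles are adjusted p under 0.05, and all 5 of them are in the stage panel.

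Other cell types also differed between the stage fractions. All 7 Sertoli cell markers were called higher in P (summed level 205.6 to 449.5 FPKM, against 14.3 to 143.7 FPKM in L/Z). Called lower in P were 13 of 14 spermatid markers, 7 of 8 macrophage markers and all 5 peritubular myoid markers tested. One of these myoid markers, *Actg2*, was highest, at 161.9 FPKM, in MFN2 cKO L/Z at PD 52, where the spermatid markers also had their highest sum. Among 11 leptotene and zygotene genes 5 were called higher and 3 lower in P, and among 10 pachytene genes 2 were called higher and 1 lower. Of 9 spermatogonial markers 1 was called higher and 3 lower in P, and of 7 Leydig cell markers none was called. The part of these cells in the stage differences of the crossover genes was not tested.

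A wider list of 24 genes of meiotic recombination, which act beside the 8 genes in crossover formation, in the dissolution of intermediates or in strand repair, was read in the same fit. One of them, *Spo16*, was not matched, *Shoc1* was matched through its older symbol, and the other 23 were tested. Higher in P were 8 of the 23 and lower 2, against 12.4% and 16.0% of all genes, with a median difference of 0.20 on the log2 scale. *Cdk2*, the kinase that sits at late crossover sites with CNTD1, stood at 20.2 to 33.1 FPKM in P and 4.09 to 10.3 FPKM in L/Z, a difference of 1.64 (SE 0.17, adjusted p = 0.0031). *Fignl1*, an ATPase that removes recombinases from DNA, stood at 12.3 to 17.4 FPKM in P and 2.98 to 6.61 FPKM in L/Z, a difference of 1.41 (SE 0.15, adjusted p = 0.0034). *Mcmdc2*, *Mcm9* and *Rtel1*, of helicase families, rose by 0.96, 0.70 and 0.70, and the nuclease subunit gene *Eme2* by 0.63 on the log2 scale. *Slx1b* and *Top3a* also rose and *Mcm8* and *Brip1* were lower in P. The other 13 did not pass the test.

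**Figure D4:**
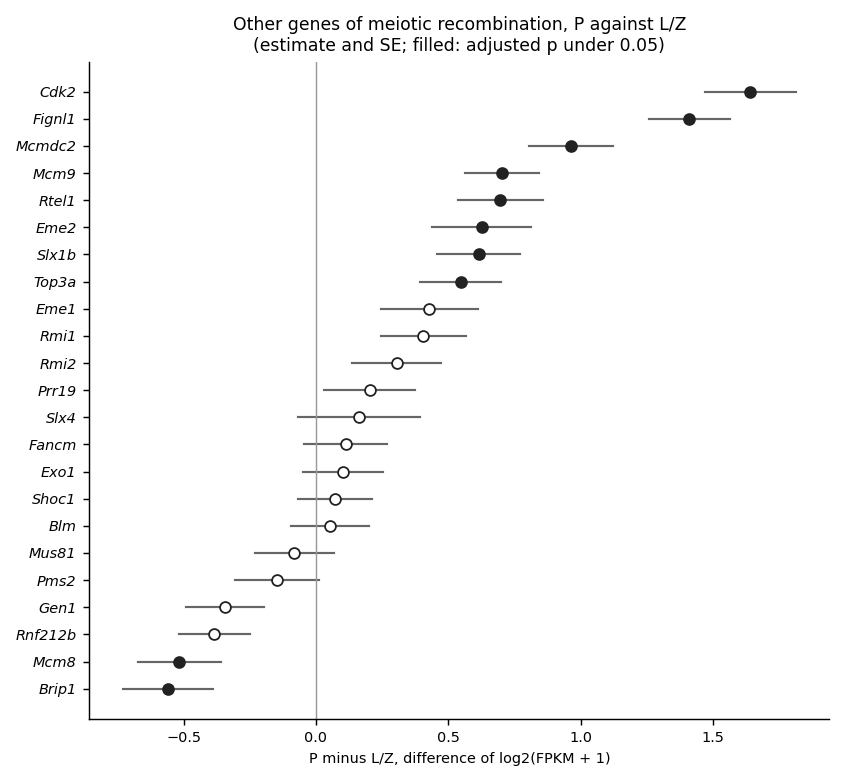
Stage difference, P minus L/Z, of log2(FPKM + 1) on the horizontal axis for the 23 other recombination genes (rows, ordered by the estimate), with lines for the SE and filled circles for adjusted p under 0.05. *Cdk2* and *Fignl1* stand apart at 1.64 and 1.41, and *Mcm8* and *Brip1* are the 2 filled circles below 0.

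The main question of the study was what the loss of MFN2 changes. None of the 8 crossover genes was called between MFN2 cKO and MFN2 WT over the 4 pairs of stage and age by limma. At an unadjusted p under 0.05 there was 1, *Msh5*, against 6.93% of all genes, and limma-voom on reads recovered from FPKM and length also called 0. Of all genes 0.137% were called, 0.132% higher and 0.00472% lower (28 genes and 1 gene), so few genes of any kind passed in this fit. *Mfn2* itself had a difference of -0.87 (SE 0.19) and did not pass (adjusted p = 0.275). All 8 estimates were below 0, with a median of -0.14 on the log2 scale against -0.04 for all genes, but the direction of *Rnf212* turned under a further scaling of the libraries (0.024). The direction of 4 of the 8, *Mlh3*, *Cntd1*, *Tex11* and *Rnf212*, also turned when 1 pair was left out.

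Markers of other cell types differed between the genotypes too. Of 7 Leydig cell markers 4 were called higher in MFN2 cKO (summed level 19.7 to 255.2 FPKM in MFN2 WT and 99.0 to 640.7 FPKM in MFN2 cKO), and in the other 7 lists none was called. The summed level of 8 macrophage markers was also higher in MFN2 cKO in 4 of 4 pairs, at 48.8 against 22.4 FPKM and 22.8 against 9.24 FPKM in P at PD 24 and PD 52, and at 128.1 against 40.9 FPKM and 174.4 against 21.9 FPKM in L/Z. The summed level of 14 spermatid markers was lower in MFN2 cKO in 3 of 4 pairs, at 159.5 against 1439 FPKM in P and 581 against 2902 FPKM in L/Z at PD 24, and at 2602 against 5351 FPKM in P at PD 52. In L/Z at PD 52 it was higher. The part of these cells in the genotype differences was not tested.

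*Msh5* had the lowest estimate, -0.40 (SE 0.15, adjusted p = 0.652). In P it stood at 6.10 FPKM in MFN2 WT and 4.87 FPKM in MFN2 cKO at PD 24, and at 4.59 and 3.96 FPKM at PD 52. In L/Z it stood at 6.66 and 4.10 FPKM at PD 24, and at 5.21 and 3.17 FPKM at PD 52. MFN2 cKO was thus lower in all 4 pairs, as it was for *Msh4* and *Hfm1*, against 5.66% of all genes. The estimates of *Msh4* and *Hfm1* were -0.12 (95% confidence interval -0.43 to 0.20) and -0.29 (-0.67 to 0.08). For *Rnf212* the interval was -0.34 to 0.33, and its FPKM in MFN2 cKO was 82.7% to 113% of that in MFN2 WT.

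Within a pair there is 1 library per genotype, so the pairs are described by the ratio of reads, scaled for library size, with an exact 95% interval that covers counting error only. In *Ccnb1ip1* at PD 52, 80 reads in MFN2 cKO stood against 234 in MFN2 WT in P, a log2 ratio of -1.40 (interval -1.79 to -1.03), and 19 against 48 in L/Z, a ratio of -1.30 (-2.15 to -0.51). At PD 24 the ratios were 0.0016 in P (-0.27 to 0.27) and 0.35 in L/Z (-0.09 to 0.79). The level in MFN2 cKO was lower at PD 52 in both stages, and both intervals at PD 24 included 0.

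*Tex11* was higher in MFN2 cKO at PD 24 and lower at PD 52 in both stages. At PD 24 it had 427 reads in MFN2 cKO against 325 in MFN2 WT in P (log2 ratio 0.51, interval 0.30 to 0.72) and 1336 against 929 reads in L/Z (0.62, 0.49 to 0.74). At PD 52 it had 186 against 377 reads in P (-0.87, -1.14 to -0.62) and 218 against 473 reads in L/Z (-1.08, -1.32 to -0.85). In the test of genotype by age, the difference between the ages was -1.33 on the log2(FPKM + 1) scale for *Tex11* (SE 0.26, adjusted p = 0.141) and -1.04 for *Ccnb1ip1* (SE 0.29, adjusted p = 0.241). Neither passed. No crossover gene was called by limma in this test, in which 0.0142% of all genes were called. Of the 8, 2 had an unadjusted limma p under 0.05, against 12.5% of all genes. By limma-voom on the recovered reads 1 was called, *Tex11* (adjusted p = 0.031). The share of 0.0142% is that of limma and not of limma-voom. In some of the alternatives far more genes were called, as the range in the last section shows. The summed level of 9 spermatogonial markers moved with *Tex11*, at 112.7 FPKM in P and 171.8 FPKM in L/Z of MFN2 cKO at PD 24 and at 54.9 and 45.7 FPKM at PD 52, against 88.8 to 118.1 FPKM in MFN2 WT. Of these 9 markers, 8 in P and 9 in L/Z were higher in MFN2 cKO at PD 24, and 6 in P and 7 in L/Z were lower at PD 52, while 3 and 2 were higher there. *Uchl1* and *Dmrt1* gave 32.7% to 48.1% and 15.2% to 27.3% of the sum. The part of these cells in the change of *Tex11* was not tested.

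**Figure D5:**
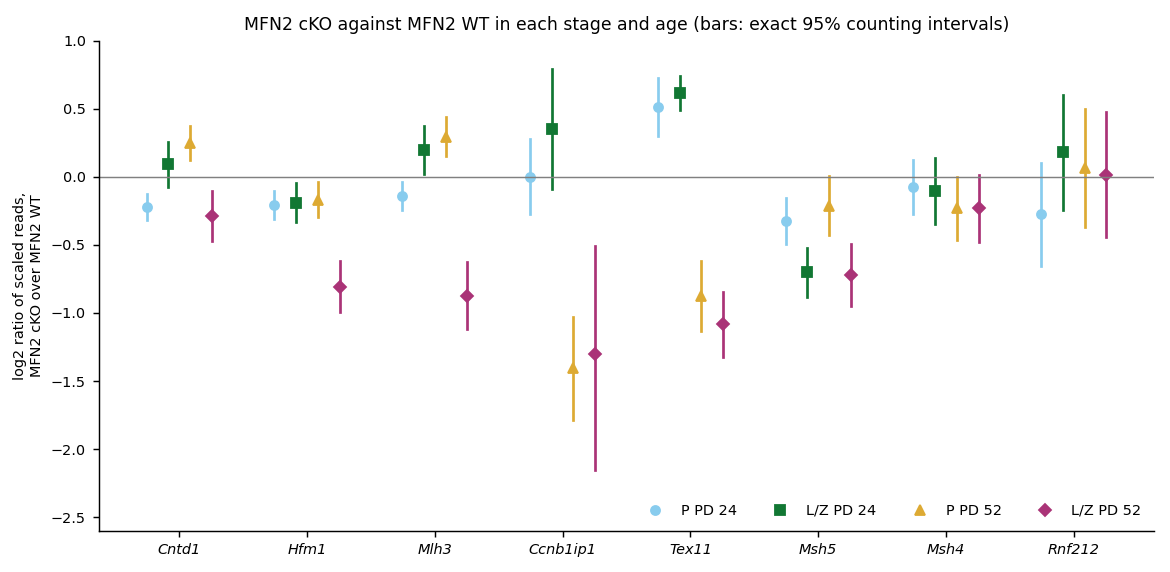
log2 ratio of scaled reads, MFN2 cKO over MFN2 WT (vertical axis), for each of the 8 genes (horizontal axis) in the 4 pairs of stage and age, with exact 95% counting intervals as bars. *Tex11* lies above 0 in both PD 24 pairs and below 0 in both PD 52 pairs, and the 2 lowest points are those of *Ccnb1ip1* at PD 52.

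In L/Z at PD 52, 7 of the 8 genes were lower in MFN2 cKO and the median difference of log2(FPKM + 1) was -0.60, against 0.02 for all genes. *Mlh3* had 214 reads in MFN2 cKO against 401 in MFN2 WT (log2 ratio -0.87, interval -1.12 to -0.63), *Hfm1* 367 against 657 (-0.81, -0.99 to -0.62) and *Msh5* 256 against 431 (-0.72, -0.95 to -0.49). *Rnf212*, with 82 reads against 83, had a ratio of 0.017 (-0.44 to 0.47). This MFN2 cKO library is the one with the highest summed level of spermatid markers, 21571 FPKM against 12231 FPKM in its MFN2 WT counterpart. The part of these cells in the lower levels was not tested. In the other 3 pairs the median difference of the 8 genes was -0.16 in P at PD 24, -0.16 in P at PD 52 and 0.11 in L/Z at PD 24.

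Taking at least 2-fold on the log2(FPKM + 1) scale as the mark, 1 of the 8 genes was lower in MFN2 cKO in P at PD 52, *Ccnb1ip1* (-1.16), where 5.78% of all genes were lower and 5.21% higher by as much. None was at least 2-fold changed in the other 3 pairs. Of all genes 6.29% were lower and 1.79% higher in P at PD 24, 7.03% lower and 3.45% higher in L/Z at PD 24, and 3.12% lower and 4.83% higher in L/Z at PD 52. With the ratio of scaled reads and nothing added, *Ccnb1ip1* and *Tex11* also passed this mark in L/Z at PD 52. Of the 23 tested genes of the wider list, 0 were called for genotype, also at an unadjusted p under 0.05, with a median of -0.12.

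Between the ages, PD 52 against PD 24, none of the 8 genes was called by limma, where 17.3% of all genes were (11.9% higher and 5.41% lower at PD 52). One of the 8, against 37.6% of all genes, had an unadjusted p under 0.05, *Mlh3*, with a difference of -0.46 (SE 0.18, adjusted p = 0.121), and limma-voom called 0. *Mlh3*, *Hfm1* and *Msh5* were lower at PD 52 in 4 of 4 pairs, as 21.4% of all genes were. The largest single differences were in MFN2 cKO L/Z, where *Tex11* stood at 20.8 FPKM at PD 24 and 4.12 FPKM at PD 52 (-2.09 on the log2(FPKM + 1) scale) and *Ccnb1ip1* at 2.93 and 0.690 FPKM (-1.22). Both were at least 2-fold lower at PD 52 in that pair, as were 12.6% of all genes. Between these same libraries the summed level of spermatid markers went from 581 to 21571 FPKM and that of spermatogonial markers from 171.8 to 45.7 FPKM, and their part in these differences was not tested. In the wider list 1 gene was called, *Cdk2*, lower at PD 52 by -0.69 (adjusted p = 0.041). No crossover gene was called by limma in the test of whether the stage difference differed between the ages (0 called, 0 at an unadjusted p under 0.05, and 0 by limma-voom), a test that called 0.0% of all genes, with 5.02% at an unadjusted p under 0.05.

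Over the 8 libraries the levels of *Mlh3*, *Hfm1*, *Cntd1* and *Ccnb1ip1* ran close to each other, with Pearson correlations of log2(FPKM + 1) between 0.77 for *Ccnb1ip1* with *Cntd1* and 0.96 for *Mlh3* with *Hfm1*. *Msh5* ran with none of the others above 0.53, and *Tex11* was between -0.62 and 0.28 with the other 7. These values describe 8 libraries that share stage, genotype and age. *Mlh3*, *Hfm1*, *Cntd1* and *Ccnb1ip1* were all called higher in P, so their closeness is not a separate result. Among 12434 protein-coding genes with a mean FPKM of at least 1, those most like *Mlh3* were *Diablo* (0.997) and *Rbm5* (0.996), those most like *Hfm1* were *L3mbtl2* (0.996) and *AC149090.1* (0.992), and those most like *Cntd1* were *Ddx19b* and *Gm5878* (both 0.996). *Ccnb1ip1* was most like *H2afx*, the gene of the histone variant that marks double strand breaks, and *Sft2d3* (both 0.990). *Tex11* was most like *Elavl2* (0.993) and *Dck* (0.992), *Rnf212* like *Katnal1* (0.96) and *Ccdc34* (0.95), *Msh4* like *Sdr39u1* (0.97) and *Apba3* (0.96), and *Msh5* like *Ints1* (0.95) and *Zzef1* (0.94). Genes that reached 0.95 numbered 407 with *Mlh3*, 304 with *Cntd1*, 218 with *Hfm1*, 140 with *Ccnb1ip1* and 81 with *Tex11*, all called for stage. With the genes not called for stage there were 3 for *Msh4*, 2 for *Rnf212* and 0 for *Msh5*.

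Only the longest GENCODE transcript of each gene was searched for 50-base windows that recur in another gene. For 7 of the 8 genes no such window was found, and for *Cntd1* 56.9% of its windows recurred, all in *Becn1*. Over the exons of all transcripts, *Ccnb1ip1* shares 233 exonic bases with *Rpph1* and *Msh4* 125 with *Gm24395*. Both *Rpph1* and *Gm24395* were listed at 0 in every library. The antisense gene *1700047L14Rik* lies over *Rnf212* with no exonic base in common and stood at 0.772 to 8.17 FPKM.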

How the data were processed

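Gene levels were read from 1 table of 54532 genes, in which the authors deposited FPKM values made with Novomagic from paired-end reads of 150 bases. Median-of-ratios factors of these values, over genes detected in every library, differed by 0.0% between libraries. The values thus already carried this scaling, in place of one to total reads. The submitters' processing notes name Bowtie 0.12.2, CASAVA 1.4 and older mouse builds, but the coordinates of the 8 genes are those of GENCODE mouse release 21 on GRCm38. The authors state DESeq2 for their own comparisons. FPKM was multiplied by the deposited gene length and divided by the smallest positive product of the library. This gave whole numbers (within 0.05), taken as reads, for 100% of values. Intervals of read ratios are exact binomial intervals scaled by median-of-ratios factors. limma 3.58.1 (R 4.3.3, trend) fitted log2(FPKM + 1) for the genes that passed FPKM 1 in any library, with the pair as a block. The test of stage by age had genotype as an additive term and no block. The fits for genotype, stage and age were tested on simulated data. Groups came from the labels. Named were the 8 genes, *Mfn2*, called genes of the wider list (up to 6 per comparison by size), the 2 genes most like each of the 8, and overlapping genes. *Slx1b*, *Top3a*, *Mcm8*, *Brip1*, *Uchl1*, *Dmrt1* and *Actg2* were named after their values were seen. One gene of the wider list is not reported here. The genes and lists were chosen with earlier results of these data known. Alternatives were a pseudocount of 0.1, no filter, a further scaling, protein-coding genes only, no block, an additive fit, each pair left out, and, added after the data were seen, limma-voom on the recovered reads.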

Additional observations from a re-analysis of the deposited data

Results flagged for a closer look

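The effect of genotype on *Tex11* pointed one way in both stages at PD 24 and the other way in both stages at PD 52. For this gene, MFN2 cKO minus MFN2 WT of log2(FPKM + 1) was 0.43 in P and 0.58 in L/Z at PD 24, and -0.72 and -0.93 at PD 52. Its difference between the ages was -1.33 (SE 0.26, limma adjusted p = 0.141). For *Ccnb1ip1* MFN2 cKO was lower in both stages at PD 52 (-1.16 and -0.68), while the values at PD 24 were 0.0014 and 0.25, with counting intervals that included 0, so no direction is read there. The difference between the ages was -1.04 (SE 0.29, limma adjusted p = 0.241). Over the alternatives the adjusted p ranged from 0.031 to 0.456 for *Tex11* and from 0.130 to 0.529 for *Ccnb1ip1*.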

How the results depend on the processing

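For the 8 genes, 78 of 88 stage values, 81 of 88 genotype values and 85 of 88 age values kept direction and side of the threshold over 11 alternatives, as did 40 of 40 for stage by age and 39 of 40 for genotype by age. The count called for stage was 5, against 2 with no block for the pair (*Ccnb1ip1*, *Hfm1* and *Tex11* lost) and 4 to 5 with a pair left out. For genotype by age it was 0, against 1 (*Tex11*) by limma-voom. Counted per gene and pair, 1 difference by genotype was at least 2-fold over all 4 pairs. Against this stood 3 with a pseudocount of 0.1 and 3 by the ratio of scaled reads, of which 2 were in L/Z at PD 52 in either case. By scaled reads *Ccnb1ip1* was counted in both P and L/Z at PD 52. Turned direction for genotype were *Rnf212* with a further scaling (0.024) and, with a pair left out, *Mlh3* (-0.20 to 0.10), *Cntd1* (-0.13 to 0.034), *Tex11* (-0.41 to 0.10) and *Rnf212* (-0.051 to 0.068). For stage *Msh5* turned with a further scaling (-0.027) and with a pair left out (-0.019 to 0.12), as did *Mfn2* (-0.22 to 0.057), and for age *Rnf212* (-0.028 to 0.070) and *Cntd1* (-0.26 to 0.025). Over all genes the fit called 29 for genotype, against 0 to 114 over the alternatives, 6013 for stage (1145 to 7604), 3669 for age (0 to 4905), 3 for genotype by age (0 to 624) and 0 for stage by age (0 to 8). The cause was not tested. By reads in place of FPKM the median share of *Hfm1* was 23.1% in place of 17.1% and that of *Rnf212* 2.33% in place of 6.66%. By Spearman correlation, 7 of the 16 genes most like a crossover gene were also among its 2 most like. The labels give no replicate numbers, so the pairs above join libraries of different groups. Genes with under 100 reads in a library, *Ccnb1ip1* and *Rnf212*, have the widest counting intervals.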
